A study of Mus musculus with 3 samples.

Results

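The genes described here serve antigen presentation by major histocompatibility complex (MHC) class II molecules, and comprised 9 genes chosen by symbol from the 55536 annotated genes. They were the alpha and beta chain genes H2-Aa, H2-Ab1 and H2-Eb1, the invariant chain gene Cd74, the peptide exchange factor genes H2-DMa, H2-DMb1 and H2-DMb2, the inhibitor gene H2-Oa and the coactivator gene Ciita. They were measured in cytosolic RNA without ribosomal RNA, in 1 group of 3 libraries. The cells were macrophages grown from the bone marrow of C57BL/6J mice (BMDM) and given lipid A at 100 ng/ml for 90 min. Lipid A is the moiety of bacterial lipopolysaccharide sensed by Toll-like receptor 4. The labels number the libraries as biological replicates 1 to 3 and give all of them the same donor identifier. Neither sex nor age was recorded, and whether the cells came from separate cultures is not given, so all errors and p-values measure the spread between these 3 libraries, which may be technical. Neither untreated cells nor nuclear RNA were analysed here, so no change with lipid A was measured, and levels were compared between genes within each library.

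Class II molecules display peptides from the endocytic pathway to CD4+ T cells. An alpha and a beta chain pair in the endoplasmic reticulum with the invariant chain, which fills the groove and guides the complex to endosomes. There proteases cut the invariant chain, H2-DM exchanges its last fragment for other peptides, and H2-O restrains H2-DM. Transcription of most of these genes depends on CIITA, which binds no DNA itself and is recruited by factors bound to the X and Y boxes of their promoters. Macrophages express class II at a low level at rest and raise it with interferon gamma. The C57BL/6 strain carries a deletion in the alpha chain gene H2-Ea, so its H2-Eb1 product has no partner and only the H2-Aa and H2-Ab1 pair reaches the surface.

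The libraries held 33671556, 47764593 and 59332546 expected counts on annotated genes in replicates 1, 2 and 3, and the 9 genes took 0.0474%, 0.0402% and 0.0421% of them. Levels are given in TPM, a share of the transcripts in a library that is corrected for length. The yardstick, called the median gene below, was the median of the 8752 protein-coding genes that averaged 1 TPM or more. It stood at 7.38, 6.07 and 6.21 TPM in replicates 1, 2 and 3, and differences from it are on the scale of log2(TPM + 0.1). A gene was called above or below this median when the limma adjusted p was under 0.05 and the log2 difference at least 1.

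The genes fell into 3 tiers. Cd74 and the 3 classical chain genes lay above the median gene, H2-DMa and H2-DMb1 beside it, and Ciita, H2-DMb2 and H2-Oa below it. Of the 9 genes, 4 lay above, and of all 13344 genes tested 20.5% did. Another 3 lay below, where 50.6% of all genes did, and 2 did neither. The median log2 difference of the 9 genes was 0.21, beside -1.06 for all genes tested. The level order Cd74, H2-Aa, H2-Eb1, H2-Ab1, H2-DMb1, H2-DMa, Ciita, H2-DMb2, H2-Oa held between neighbours in 3 of 3 libraries, except that H2-DMb1 stood above H2-DMa in only 1 of 3 libraries.

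**Figure D1:**
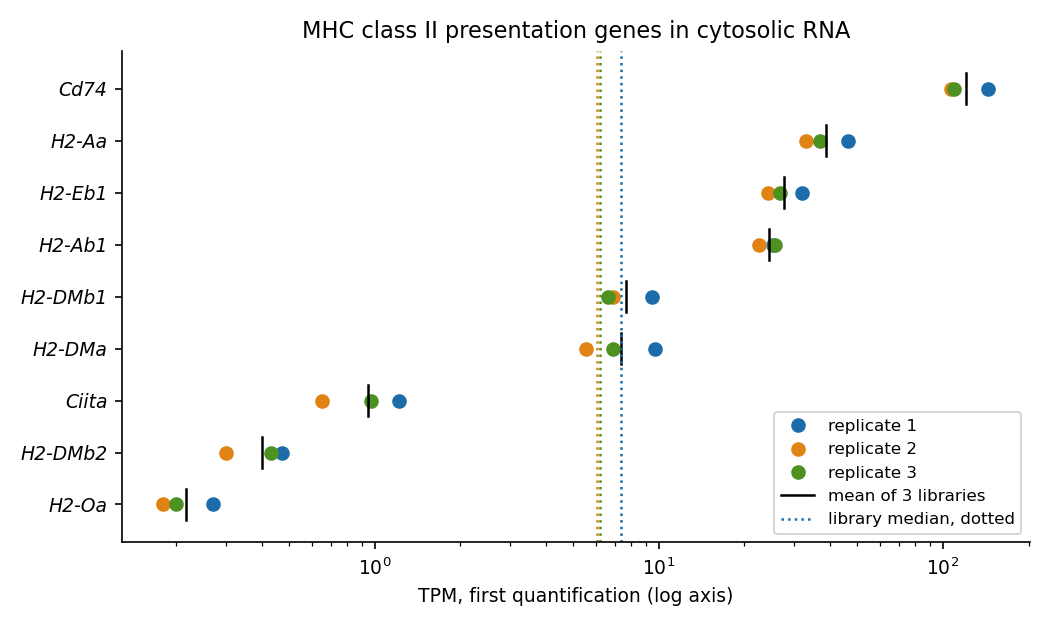
TPM of each gene in each library (points, log axis) with the mean of the 3 libraries (black bar) and the median protein-coding gene of each library (dotted lines in the colours of the replicates). Cd74 stood at 107 TPM or more in every library, and Ciita, H2-DMb2 and H2-Oa stood at 1.22 TPM or less.

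Cd74 (ENSMUSG00000024610.15, chromosome 18, 60803848 to 60812652, mm10, plus strand) encodes the invariant chain and was the most abundant of the 9 genes. It gave 145, 107 and 109 TPM in replicates 1, 2 and 3, from 8794, 10625 and 13256 expected counts. The values of replicates 2 and 3 were close, and replicate 1 was the highest. Cd74 averaged 120.3 ± 21.1 TPM (SD, n = 3) and lay 4.17 ± 0.09 log2 units above the median gene, 17.99-fold (limma, Benjamini-Hochberg adjusted p = 3.21e-05), and it ranked 319 among 22028 protein-coding genes. The ratio of Cd74 to H2-Ab1, the beta chain that it escorts, was 5.73, 4.76 and 4.26 in the libraries, a mean of 2.29 ± 0.22 on the log2 scale or 4.88-fold. This ratio was above 1 in 3 of 3 libraries, and the exact two-sided sign-flip test gave p = 0.25, the smallest that 3 libraries allow. Almost all Cd74 transcripts belonged to 2 annotated forms. The short form Cd74-201 held 78.6% ± 2.49 of the TPM of the gene and Cd74-202 21.2% ± 2.51. Cd74-202 has an extra exon of 192 bases (64 codons), which in the mouse encodes the thyroglobulin type domain of the longer invariant chain, a part that binds cathepsins. The share of Cd74-202 was 18.5%, 21.5% and 23.5% in replicates 1, 2 and 3.

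Ciita (ENSMUSG00000022504.10, chromosome 16, 10480059 to 10528418, mm10, plus strand), the coactivator of class II transcription, was 1 of the 3 genes below the median gene. It gave 1.22, 0.65 and 0.97 TPM, from 293, 297 and 464 expected counts. Replicate 1 was the highest and replicate 2 the lowest. The mean of 0.947 ± 0.286 TPM lay -2.70 ± 0.30 log2 units from the median gene, 6.50-fold lower (limma, Benjamini-Hochberg adjusted p = 0.000181). The level of Ciita was 26.6-fold lower than that of H2-Ab1, with a log2 ratio of -4.74 ± 0.37 and the same sign in 3 of 3 libraries (exact sign-flip p = 0.25), and of -3.72 with a pseudocount of 1 TPM. Its 8 annotated transcripts start at 3 places, and Ciita is known to have several promoters with a first exon each, used in different cell types. The middle start, with 2 transcripts starting between 10488178 and 10488279, held 61.7% ± 11.0 of the TPM. The downstream start held 28.2% ± 5.503 and the upstream start 10.1% ± 5.49. From the downstream start, Ciita-204, Ciita-208 and Ciita-203 held 12.7%, 8.45% and 7.04% of the TPM. By expected counts, which are not corrected for length, these transcripts held 4.17%, 0.932% and 5.93%. In the second deposited quantification the middle and downstream starts were level, at 42.4% ± 4.602 and 42.1% ± 2.63, with 15.5% ± 7.11 upstream. The annotation does not name the promoters, and most bases of these transcripts are shared, so the split rests on few of the reads. Ciita-201, from the middle start, held 58.3% ± 11.5 of the TPM of the gene and, by expected counts, 77.9%, against 37.6% ± 5.53 of the TPM in the second quantification.

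The X and Y boxes, the promoter elements at which CIITA is recruited, were looked for in the windows of the 9 genes. The stretches below are printed for 4 chain genes, of which H2-Eb1 and H2-DMb2 hold an X box core followed by a Y box core and H2-Aa and H2-Oa the Y box core alone. Windows of 250 bases before to 50 after a start were found in RefSeq (GRCm38.p6, which is mm10) for 6 of the 9 genes, and H2-Ab1, Cd74 and Ciita had no entry. Capitals mark the core of the X box, AACNGATG, and of the Y box, TGATTGG, the inverted CCAAT motif that NF-Y binds. The X box core was written down after the windows had been read, so its presence in them is a description only. The same holds for the place of these genes among the windows of all genes counted below.
H2-Eb1, chr17:34305756-34305830, plus strand: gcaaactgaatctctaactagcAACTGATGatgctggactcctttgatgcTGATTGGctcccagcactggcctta
H2-DMb2, chr17:34145107-34145181, plus strand: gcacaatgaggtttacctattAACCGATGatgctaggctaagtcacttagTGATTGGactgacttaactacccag
H2-Aa, chr17:34287849-34287923, minus strand: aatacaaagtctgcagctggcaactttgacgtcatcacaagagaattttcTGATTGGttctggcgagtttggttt
H2-Oa, chr17:34092284-34092358, plus strand: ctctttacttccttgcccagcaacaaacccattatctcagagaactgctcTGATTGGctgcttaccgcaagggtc
H2-Eb1 had 20 bases between the X and Y cores, and H2-DMb2 had 21, as did H2-DMb1, whose stretch lies inside an annotated exon and is not printed. The last 19 bases of the H2-Oa stretch lie in its first annotated exon. That H2-Aa and H2-Oa had no X box core says no more than that its letters were not in these windows. Both H2-DMa windows, which matched neither, lie upstream of the start of the transcript that held most of its TPM. On either strand, the Y box core was in 7.82% and the X box core in 2.32% of 32851 windows of all genes. An X core followed on the same strand by a Y core 10 to 40 bases on was found in 7 windows, of which 3 belonged to H2-Eb1, H2-DMb1 and H2-DMb2. The other 4 windows, named after the search, belonged to H2-Eb2, H2-M10.4 and BC051142 on chromosome 17 and to Gm35444 on chromosome 13. Of the 3 genes with this layout, H2-Eb1 lay in the upper tier of levels, H2-DMb1 in the middle tier and H2-DMb2 in the lowest. A relation of the layout to the level was not tested.

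Among the classical chains, the alpha chain gene H2-Aa was higher than the beta chain genes. H2-Aa (ENSMUSG00000036594.15, chromosome 17, 34282744 to 34287823, mm10, minus strand) gave 46.34, 32.96 and 37.02 TPM and lay 2.54 ± 0.11 log2 units above the median gene, 5.81-fold (limma, Benjamini-Hochberg adjusted p = 4.67e-05). H2-Ab1 (ENSMUSG00000073421.6, 34257689 to 34269419, plus strand), its partner on the cell surface, gave 25.2, 22.5 and 25.6 TPM and lay 1.89 ± 0.14 log2 units above it (limma, Benjamini-Hochberg adjusted p = 0.000107), a call lost against the median of genes of at least 5 TPM (0.86). The ranges of the partner chains did not overlap, since the lowest H2-Aa value exceeded the highest H2-Ab1 value. The ratio of H2-Aa to H2-Ab1 was 1.84, 1.47 and 1.44, a mean of 1.57-fold (0.65 ± 0.19 on the log2 scale, exact sign-flip p = 0.25). Nearly all of the TPM of both genes belonged to 1 coding transcript each, 99.5% ± 0.452 to H2-Aa-201 and 94.6% ± 2.39 to H2-Ab1-201.

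H2-Eb1 (ENSMUSG00000060586.11, chromosome 17, 34305867 to 34316674, mm10, plus strand), the beta chain gene whose alpha partner is deleted in this strain, was close to H2-Ab1 in level when all of its transcripts were counted, but most of that was not assigned to coding transcripts. It gave 32.0, 24.2 and 26.8 TPM and lay 2.06 ± 0.07 log2 units above the median gene (limma, Benjamini-Hochberg adjusted p = 5.08e-05). Its ratio to H2-Ab1 was 1.27, 1.08 and 1.04, a log2 ratio of 0.17 ± 0.15 (exact sign-flip p = 0.25), which turned to -1.82 when only coding transcripts of both genes were counted, a comparison added after the data were seen. The transcript H2-Eb1-205, annotated as a target of nonsense-mediated decay (the pathway that degrades mRNAs with an early stop codon), held 54.9%, 51.6% and 45.4% of the TPM in replicates 1, 2 and 3. Protein-coding transcripts held 24.04% ± 2.50 and retained-intron transcripts 25.4% ± 4.88. In the second quantification the decay, coding and retained-intron classes held 53.7% ± 3.44, 10.7% ± 1.48 and 35.7% ± 4.36. By expected counts, which are not corrected for length, they held 46.9% ± 4.06, 37.3% ± 3.20 and 15.8% ± 3.403. None of the other genes has an annotated transcript of the nonsense-mediated decay class. The letters where H2-Eb1-205 parts from the main coding transcript H2-Eb1-203 are shown from 30 bases before the junction of exons 1 and 2, with capitals for the first 53 bases of exon 2 (chr17:34309591-34309643, plus strand), which H2-Eb1-205 lacks.
H2-Eb1-203: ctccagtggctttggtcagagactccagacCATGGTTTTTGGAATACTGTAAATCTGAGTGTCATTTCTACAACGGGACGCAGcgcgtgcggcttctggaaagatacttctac
H2-Eb1-205: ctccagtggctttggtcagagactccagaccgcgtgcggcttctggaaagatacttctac
The 53 bases leave a remainder of 2 when divided by 3, so the reading frame shifts, and the annotated coding part of H2-Eb1-205 ends in exon 2. Exon 2 encodes the domain of the beta chain that forms a wall of the peptide groove. The annotated models also differ at their ends, where the last exon of H2-Eb1-203 runs on for 475 bases more. Whether reads over the junction or reads over the 3′ end set the split between the models was not tested, since no read positions were analysed here.

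**Figure D2:**
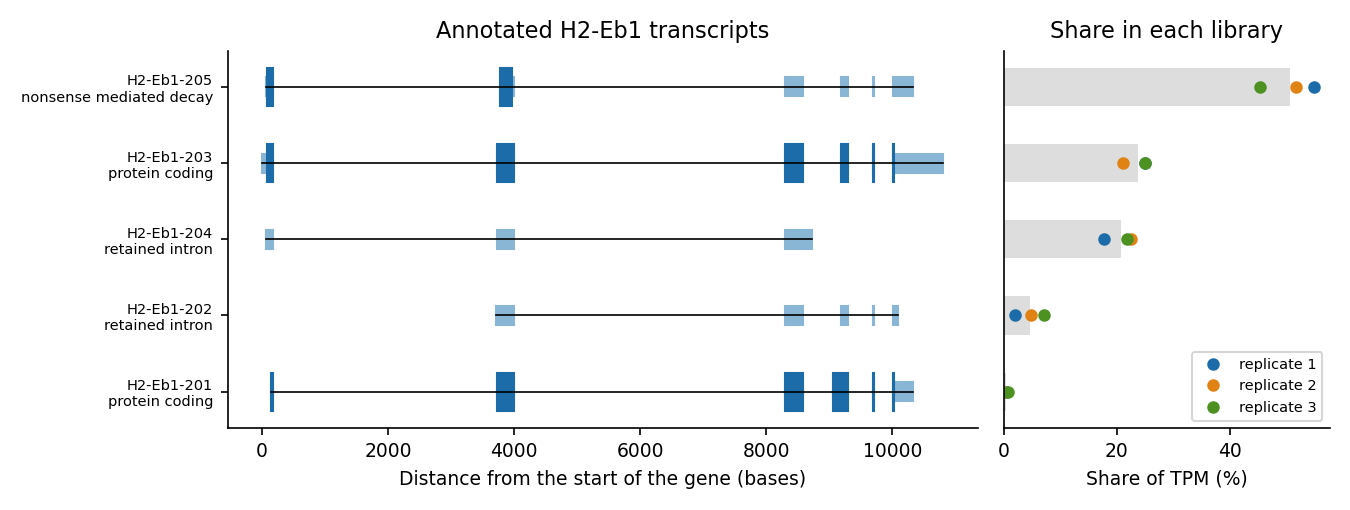
Left, the 5 annotated transcripts of H2-Eb1 by distance from the start of the gene in bases (dark boxes, coding parts; light boxes, other exon parts; lines, introns). Right, the share of the TPM of the gene that each held in the 3 libraries (points) and their mean (bars). H2-Eb1-205 held the largest share in every library, 45.4% to 54.9%.

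**Figure D3:**
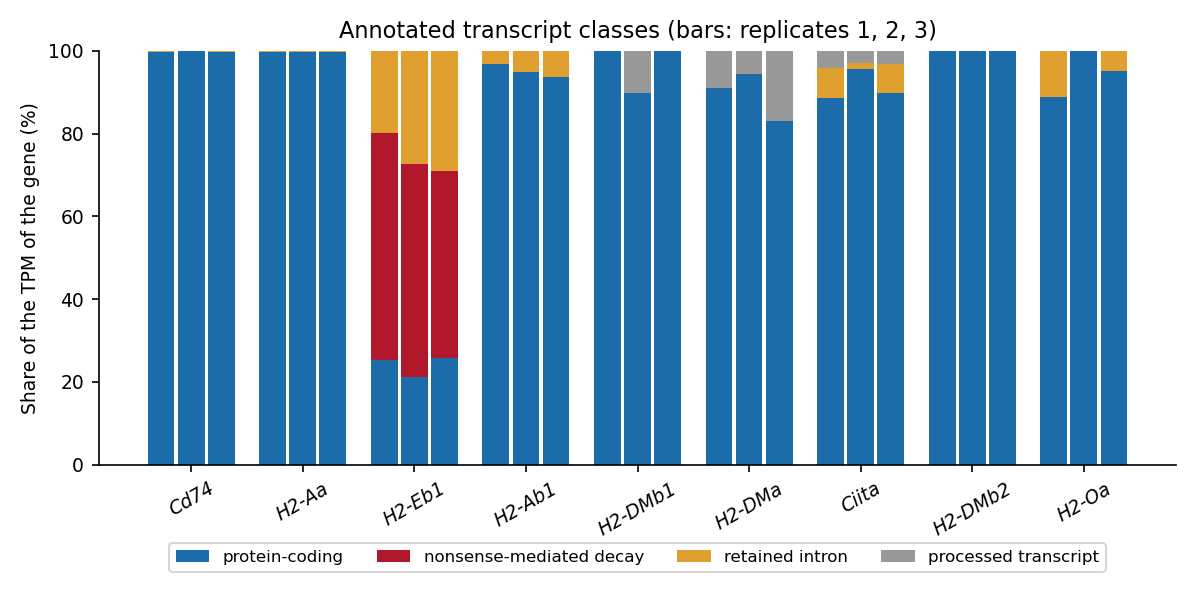
Share of the TPM of each gene by annotated transcript class, with 1 bar for each of replicates 1, 2 and 3. H2-Eb1 is the only gene of the 9 with an annotated transcript of the nonsense-mediated decay class. In the first quantification, shown here, coding transcripts held 83.1% or more of every other gene in every library. In the second, those of H2-DMa held 84.7%, 80.8% and 70.1% in replicates 1, 2 and 3.

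H2-DM is a dimer of an alpha chain from H2-DMa and a beta chain from either of the neighbouring genes H2-DMb1 and H2-DMb2. H2-DMa (ENSMUSG00000037649.10, chromosome 17, 34119541 to 34139101, mm10, plus strand) gave 9.68, 5.53 and 6.92 TPM and lay beside the median gene with a log2 difference of 0.14 ± 0.26 (limma, Benjamini-Hochberg adjusted p = 0.345). Its values lay above the median gene in replicates 1 and 3 and below it in replicate 2, and without replicate 1 the mean difference was -0.01. H2-DMb1 (ENSMUSG00000079547.4, 34153072 to 34160230, plus strand) gave 9.46, 6.91 and 6.60 TPM, 0.21 ± 0.13 log2 units from the median gene (limma, Benjamini-Hochberg adjusted p = 0.0648). In the second quantification the differences of H2-DMa and H2-DMb1 were -0.27 and -0.38. The ratio of H2-DMa to both beta chain genes together was 0.975, 0.767 and 0.984, a mean of -0.15 ± 0.20 on the log2 scale (exact sign-flip p = 0.25), and 0.03 in the second quantification. The exons of H2-DMa share 360 bases with Brd2 on the opposite strand, which gave 83.6, 74.9 and 87.9 TPM. None of these bases are in H2-DMa-205. That transcript held 84.1% ± 6.11 of the TPM of H2-DMa, and 73.2% ± 7.03 in the second quantification. Whether reads of Brd2 were counted in the other transcripts of H2-DMa was not tested.

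H2-DMb2 (ENSMUSG00000037548.15, 34143307 to 34151555, plus strand), the other beta chain gene, was far lower than H2-DMb1. It gave 0.47, 0.30 and 0.43 TPM, from 33.2, 34.7 and 60.1 expected counts, and lay -3.74 ± 0.19 log2 units from the median gene, 13.4-fold lower (limma, Benjamini-Hochberg adjusted p = 4.29e-05). The ratio of H2-DMb1 to H2-DMb2 was 20.1, 23.0 and 15.3 in the libraries, a mean of 19.2-fold (4.27 ± 0.30 on the log2 scale, exact sign-flip p = 0.25). With a pseudocount of 1 TPM, which shrinks ratios of low genes, the mean log2 ratio was 2.62. The sources used here name no level for the deposited intervals of TPM, which ran from 0.342 to 0.670, 0.224 to 0.435 and 0.339 to 0.564 for H2-DMb2. For H2-DMb1 they ran from 8.78 to 10.4, 6.27 to 7.60 and 6.24 to 7.24, so they did not overlap. The coding parts of the main transcripts of both genes are 783 bases long and differ at 32 of them, an identity of 95.9%. Of these differences, 24 lie in the second coding part of 282 bases. The 60 bases with the most differences, 17, are shown with capitals where the genes differ, since reads over them can be told apart.
H2-DMb1, chr17:34155585-34155644, plus strand: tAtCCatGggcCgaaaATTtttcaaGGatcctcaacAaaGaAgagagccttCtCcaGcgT
H2-DMb2, chr17:34147803-34147862, plus strand: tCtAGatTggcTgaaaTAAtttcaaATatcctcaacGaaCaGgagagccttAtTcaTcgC
Of the 31-base words of H2-DMb2-201, 45.7% (637 of 1394) also occur in other genes, 517 of them in H2-DMb1 and the rest spread over many, 1351 genes in all. Of the words of H2-DMb1-201, 37.6% also occur in H2-DMb2. Thus part of the reads could be assigned to either gene, and the low level of H2-DMb2 is uncertain to that extent. Of the words of H2-Oa-201, 24.9% occur in the antisense gene BC051537. For the classical chains, H2-DMa, Cd74 and Ciita at most 2.01% of such words of the main transcript occur in another gene. The main transcript is the one with the largest share of the TPM. For H2-Eb1 it was the decay model H2-Eb1-205, so words found only in the coding H2-Eb1-203 were not searched.

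H2-Oa (ENSMUSG00000024334.9, chromosome 17, 34092340 to 34095234, mm10, plus strand), the alpha chain of the inhibitor H2-O, was the lowest of the 9 genes. It gave 0.27, 0.18 and 0.20 TPM, from 14, 15 and 21 expected counts, whose exact Poisson 95% intervals ran from 7.65 to 23.5, from 8.40 to 24.7 and from 13.0 to 32.1 and cover counting error only. H2-Oa lay -4.40 ± 0.06 log2 units from the median gene, 21.1-fold lower (limma, Benjamini-Hochberg adjusted p = 3.21e-05). The 0.1 TPM added to such low values narrows this SD, so it and the p-value understate the uncertainty of the level. The ratio of H2-Oa to its target H2-DMa was -5.07 ± 0.12 on the log2 scale, 33.7-fold lower, with the same sign in 3 of 3 libraries (exact sign-flip p = 0.25), and -2.75 with a pseudocount of 1 TPM. Its exons overlap the antisense gene BC051537 over 321 bases. That gene was listed at 0 TPM in 3 of 3 libraries, and the sources used here do not say whether strand was used in counting. H2-Ob, which encodes the beta chain of H2-O, was also low, at 0.10, 0.23 and 0.22 TPM. These values came from 11, 29 and 35 expected counts (log2 difference -4.58 ± 0.56, limma, Benjamini-Hochberg adjusted p = 0.000209). H2-Eb2 gave 0.09, 0.12 and 0.11 TPM (log2 difference -5.01 ± 0.26, limma, Benjamini-Hochberg adjusted p = 4.01e-05). Both genes lay close to the filter of 0.1 TPM, and 0.1 TPM was added to every value. With these settings a gene near the filter falls below the median gene in advance, so these p-values say only that the levels were near the filter. The remnant of the deleted alpha chain gene, H2-Ea-ps, had 0 counts in 3 of 3 libraries. A count of 0 was taken to allow up to 3 counts, or 0.0891, 0.0628 and 0.0506 CPM (counts scaled to the library total). The exact Poisson 95% interval of the kind given for H2-Oa reaches 3.69 counts.

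The other genes of the pathway were read in the same fit. Of all 13344 genes tested, 20.5% lay above the median gene and 50.6% below it. Of the 7 factors that bind class II promoters, 1 lay above it, 4 below it and 2 did neither, near those shares. The NF-Y subunit gene Nfya lay above it at 21.47, 16.98 and 16.86 TPM (log2 difference 1.47 ± 0.05, limma, Benjamini-Hochberg adjusted p = 8.71e-05). All 3 subunit genes of the RFX complex, which binds the X box, lay below it, with Rfx5 at 2.74, 2.17 and 2.63 TPM, Rfxap at 2.48, 3.48 and 2.34 TPM and Rfxank at 1.59, 1.21 and 1.29 TPM. Nfyb also lay below it, and Nfyc and Creb1 were not called, at -0.59 and -0.16 log2 units. Ciita stood below each of these 7 factors in mean level.

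Of 9 regulators of Ciita transcription, 6 lay above the median gene, 1 below it and 2 did neither, beside 20.5% above and 50.6% below of all genes tested. Irf1, an activator downstream of interferon gamma, gave 191, 122 and 129 TPM (log2 difference 4.45 ± 0.20, limma, Benjamini-Hochberg adjusted p = 3.66e-05). The macrophage factor gene Spi1 gave 89.1, 69.3 and 67.0 TPM. Irf2 and Irf8 were also above it, a call that Irf2 lost without replicate 1 at 0.996 log2 units. Prdm1, which encodes the repressor Blimp-1 that silences Ciita in plasma cells, lay above it at 34.1, 23.6 and 28.7 TPM. Socs1, an inhibitor of interferon gamma signalling, lay below it at 4.44, 2.48 and 1.78 TPM. It was the only gene of the lists that varied between the libraries beyond genes of like expression (edgeR goodness-of-fit, Benjamini-Hochberg adjusted p = 0.00453), and without replicate 3 its call was lost at -0.98 log2 units. Of the interferon gamma signal, the receptor genes Ifngr1 and Ifngr2 and the kinase genes Jak1 and Jak2, all 4 genes tested, lay above it by 1.83 to 2.88 log2 units. The cytokine gene Ifng itself had 0 counts in 3 of 3 libraries, with the same limits as H2-Ea-ps.

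Each of the 4 cathepsin genes of the pathway had a higher level in every library than any of the class II chains or the invariant chain. All 7 lysosomal processing genes lay above the median gene, where 20.5% of all genes tested did, with a list median of 6.13 log2 units. Ctss, which encodes cathepsin S, the protease that trims the invariant chain in antigen-presenting cells, gave 853, 733 and 741 TPM (log2 difference 6.87 ± 0.03, limma, Benjamini-Hochberg adjusted p = 3.21e-05). Ctsd and Ctsb averaged 2731 ± 224 and 2131 ± 209 TPM. The lowest of the list was Ifi30, the thiol reductase that opens disulfide bonds of antigens, at 17.7, 15.9 and 15.5 TPM. Sppl2a, the protease that removes the last membrane fragment of the invariant chain, gave 28.63, 24.74 and 24.04 TPM. Among genes of trafficking and turnover, 3 of 5 lay above the median gene, beside the same 20.5% of all genes tested. March1 and March8, ubiquitin ligase genes whose products remove class II from the surface, were not called at 0.96 ± 0.09 and 0.70 ± 0.03 log2 units, although March1 was called above it without replicate 3 at 1.01. Cd83, whose product protects class II from that removal, gave 340, 289 and 256 TPM.

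**Figure D4:**
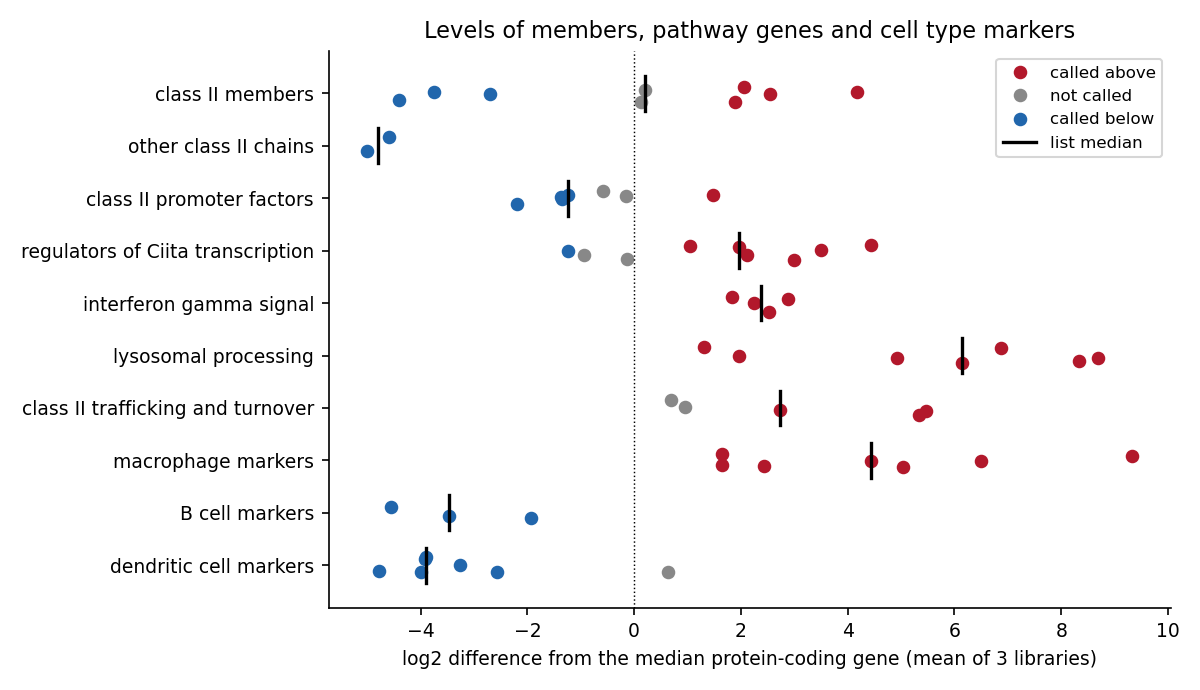
Mean log2 difference of each tested gene from the median protein-coding gene, by list, coloured by call, with the list median as a black bar. The class II genes run from -4.40 to 4.17 log2 units, and the 7 lysosomal processing genes all lie above 0.

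Markers of other class II-bearing cells were set beside these levels. All 7 macrophage markers lay above the median gene, where 20.5% of all genes tested did. They were led by Lyz2 and Cd68, and their summed level was 6670, 4822 and 4666 TPM. The 10 B cell markers summed to 2.84, 1.95 and 2.48 TPM, led by Cd22 at 1.90, 1.38 and 1.67 TPM and Cd79b at 0.62, 0.36 and 0.56 TPM. The receptor gene Cr2 had 0, 0 and 2 expected counts. The 3 B cell markers tested all lay below the median gene, where 50.6% of all genes tested did. The 10 dendritic cell markers summed to 16.4, 11.2 and 12.3 TPM. Of these, 13.4, 8.55 and 9.23 TPM were Clec10a, a lectin gene that macrophages also express, and the next was Ccr7 at 1.07, 1.01 and 0.970 TPM. The defining gene Zbtb46 gave 0.30, 0.32 and 0.41 TPM and Flt3 0.10, 0.13 and 0.20 TPM. The B cell and dendritic cell sums in TPM were highest in replicate 1 and lowest in replicate 2, as were most of the class II genes. That order is common, since replicate 1 was the highest for 72.2% of all genes of at least 0.1 TPM. Replicate 2 was the lowest for 47.5% of them. As a share of the expected counts, the B cell markers were highest in replicate 3 (0.00120%, 0.00106% and 0.00131% in replicates 1, 2 and 3). The part of such cells in the class II levels was not tested. In such bulk RNA, fewer cells of a type and less RNA per cell cannot be told apart.

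Between the highest and the lowest library the 9 genes differed by 1.10-fold for Cd74 to 1.37-fold for H2-DMb2, after scaling of the counts by the trimmed mean of M values (TMM). In TPM, replicate 1 was the highest library for 8 of them, as it was for 72.2% of all genes of at least 0.1 TPM. On the TMM scale, replicate 1 was the highest for 7 genes and replicate 2 the lowest for 8, beside 38.3% and 25.5% of 12339 genes. H2-Ab1 ran the other way, lowest in replicate 1 and highest in replicate 3, with log2 CPM of 5.35, 5.46 and 5.61. Its partner gene H2-Aa had 6.13, 5.94 and 6.09. The SD of log2 CPM ran from 0.0728 for Cd74 to 0.230 for H2-DMb2, with a median of 0.120 over all genes tested. None of the 9 genes varied beyond genes of like expression in the edgeR goodness-of-fit test, where 2.34% of genes were called at an adjusted p under 0.05. The count was also 0 at an unadjusted p under 0.05, where the smallest p was 0.205, and 0 of 9 with DESeq2 size factors.

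**Figure D5:**
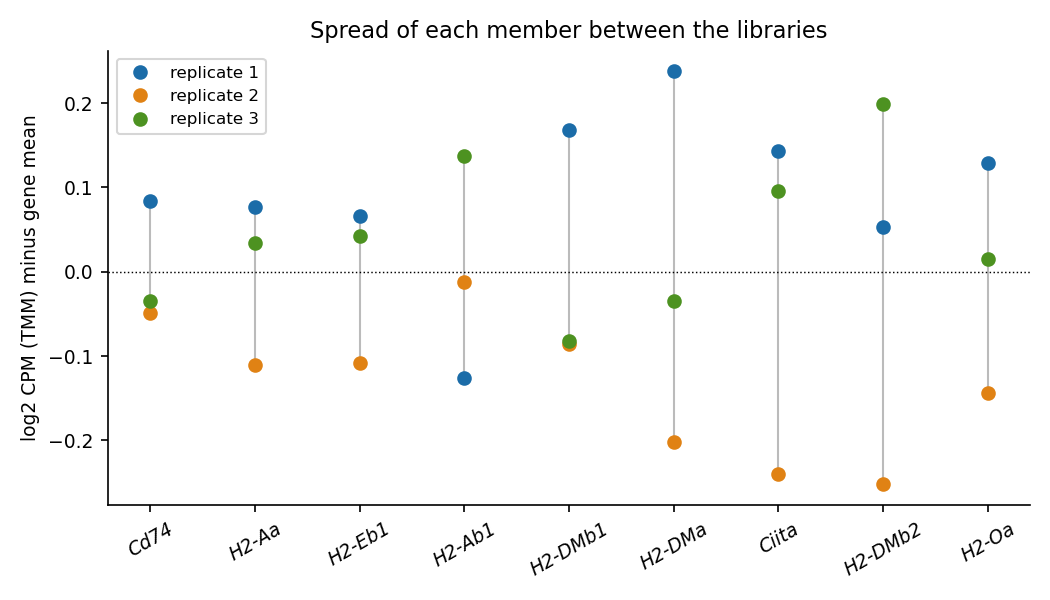
Log2 CPM (TMM) of each gene in each library minus its mean over the 3 libraries. Replicate 2 is the lowest for 8 of the 9 genes, and H2-Ab1 is the only one with replicate 1 lowest.

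The second quantification was set against the first after centring on all genes tested, because its TPM was lower for most of them. The median ratio was 0.492, 0.429 and 0.349 in replicates 1, 2 and 3. Of the 9 genes 6 had at least 1 TPM in either and were tested. By limma, 0 of these 6 were higher and 0 lower by a log2 difference of at least 1, beside 2.72% and 1.94% of 9491 genes. At an unadjusted p under 0.05, 3 genes passed. These were H2-Aa, H2-DMb1 and Cd74, at centred log2 ratios of -0.14 ± 0.04, -0.13 ± 0.03 and -0.11 ± 0.03 (limma, Benjamini-Hochberg adjusted p = 0.0261, 0.0212 and 0.0275). The members H2-DMb2, H2-Oa and Ciita were not tested.

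The genes with the pattern most like that of Cd74 over the 3 libraries were Adhfe1, Ppwd1 and Cdc42se2, whose centred log2 CPM differed from its own by at most 0.00191, 0.00220 and 0.00238. With 3 libraries such likeness is common, since 28.9% of 12338 genes stayed within 0.1 of Cd74. H2-Aa, H2-Eb1, H2-DMb1 and H2-Oa were among them, at 0.0689, 0.0773, 0.0840 and 0.0955. The other 4 were not, with H2-DMa at 0.154, Ciita at 0.191, H2-Ab1 at 0.209 and H2-DMb2 at 0.234.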

How the data were processed

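The members and the gene lists were chosen with earlier results of these data known. Reads were aligned by the authors to mm10 and annotated with GENCODE M21, per the texts deposited with the values. Per the file headers, they deposited expected counts, TPM and FPKM per gene and transcript (called the first quantification). They also deposited estimated counts and TPM per transcript (the second). The sources used here give neither the names and versions of the tools behind these values nor whether strand was used in counting. TPM of the second quantification was summed per gene.

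Levels were tested by a one-sample limma fit (limma 3.58.1, R 4.3.3) on log2(TPM + 0.1) minus the library median of the protein-coding genes with at least 1 TPM, over all genes of at least 0.1 TPM, with Benjamini-Hochberg adjustment over all of them. All 9 members passed this filter. Fold changes and SDs on this scale understate those of low genes. The test takes the library as its unit, so a small p says that a difference between genes repeated in the 3 libraries. Ratios between members used an exact two-sided sign-flip test. Spread between libraries was tested with edgeR 4.0.16 (goodness of fit to the trended dispersion, TMM) on expected counts rounded to whole numbers, where every library had 10 counts or more. DESeq2 1.42.0 size factors, FPKM, other pseudocounts and filters, another median and leaving out each library served as alternatives, and transcript shares were described without a test. The named genes were all members, any gene of the pathway lists, the 2 highest of each marker list and the 3 genes most like Cd74, defining markers at or near 0 being added after their values were seen. Of the listed symbols H2-Ea, Marchf1 and Marchf8 were not found, the ligases being present as March1 and March8. The tests of level, of spread and of the second against the first quantification were tried on simulated data. The simulation for level changed a far smaller part of the genes than was called here. The ratios, transcript shares, likeness and sequence searches were not tried on simulated data. Promoter windows come from RefSeq, and transcript sequences from GENCODE M21. Values of some listed genes are not reported here by name.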

Additional observations from a re-analysis of the deposited data

How the results depend on the processing

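Under every alternative run, 3 or 4 members lay above the median gene and 2 or 3 below it, and 0 were called for spread or between the quantifications. Leaving out each library in turn gave 4 above and 3 below throughout. The lower number below came from the second quantification, where H2-Oa missed the filter of 0.1 TPM. Against a median of genes of at least 5 TPM, H2-Ab1 lost its call at 0.86 log2 units and H2-DMa and H2-DMb1 turned to -0.89 and -0.82. They also turned in the second quantification (-0.27 and -0.38). Leaving out libraries, the level of H2-DMa ran from -0.013 (without replicate 1) to 0.29. Between the quantifications, H2-Eb1 and H2-DMa turned to -0.13 and -0.011 with a pseudocount of 1 and to -0.050 and -0.068 with a filter of 0.1 TPM. The ratio of H2-Eb1 to H2-Ab1 turned to -1.82 on coding transcripts, which leave out the decay and retained-intron models, and that of H2-DMa to its beta chains to 0.027 in the second quantification. Shares moved in the second quantification to 99.0% for H2-Aa-201, 73.2% for H2-DMa-205, 53.7% for H2-DMb2-201, 75.9% for Cd74-201 and 37.6% for Ciita-201. By expected counts they moved to 97.5% for H2-Ab1-201, 75.8% for Cd74-201 and 77.9% for Ciita-201. The cause of the other shifts was not tested. With 14 to 60.1 expected counts per library, H2-Oa and H2-DMb2 were limited by depth. No paired analysis was possible because the labels number 1 group.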
